A study of Homo sapiens with 6 samples.

Results

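Chromatin of K562 cells carrying wild-type SLFN11 was compared with that of K562 cells carrying the vector, both given DMSO and no drug. These are 2 of the 6 libraries of the series, 1 library a side, chosen by their labels alone. The 2 peak lists hold 11651 distinct intervals for the wild-type SLFN11 library and 5246 for the vector library, of 48967 in the 6 lists. K562 is an established human leukaemia line, and the genotype field gives wild-type SLFN11 overexpression for one line and vector control for the other. Neither the promoter that drives SLFN11 nor whether a line is 1 clone or a pool is stated by the labels. The other 4 libraries were wild-type SLFN11 with 1000 nM camptothecin (CPT) for 4 h, vector with the same treatment, and a line with E669Q SLFN11 with and without it. They serve here to ask where intervals of one DMSO list alone were found again.

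SLFN11 is a nuclear protein of the Schlafen family that is recruited to stressed replication forks, where it blocks replication and is known to make cells sensitive to DNA-damaging drugs. Its published role in chromatin opening concerns cells under replication stress, so the comparison without drug describes what the line looked like before any stress was applied. ATAC-seq uses a transposase that cuts and tags accessible DNA, so that active promoters and enhancers appear as peaks. A peak list records where that signal passed a threshold, and a place missing from a list can still hold signal under it. SLFN11 itself is not measured by these files, no genome or gene annotation of their build (hg19) was used, and regions are therefore named by position. For the same reason the cell type named in the labels was not checked against marker genes.

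Most of what was called in the vector library was also called in the wild-type SLFN11 library, and the wild-type SLFN11 list held many more intervals beyond that. Of the 11651 wild-type SLFN11 intervals 7220 had no overlap of 1 bp or more in the vector list, and 4431 (38.0%, 95% interval 37.1 to 38.9) had one. That is 62% of the list unshared. Of the 5246 vector intervals 808 had no overlap in the wild-type SLFN11 list, which is 15.4%, and 4438 (84.6%, 83.6 to 85.6) had one. In covered sequence the lists held 3.80 Mb for wild-type SLFN11 and 1.49 Mb for vector, and 1.15 Mb lay in both. These and all later intervals on shares are exact binomial ones that cover counting error only and treat peaks as independent. With 1 library a side there is no replicate spread, so no difference here has a test.

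The 2 libraries differed in depth, and this bears on every count of intervals. The whole-genome mean recovered from the deposited values was 44.3 fragments per 10 kb in the wild-type SLFN11 library and 25.7 in the vector library, a ratio of 1.72. In the 10 kb around 4361 summits called in both libraries the median was 130.0 fragments in the wild-type SLFN11 library and 66.0 in the vector library, and the median of the paired ratios was 1.99 (95% interval 1.97 to 2.00). Mitochondrial DNA counts towards a whole-library mean, and it held 60342 times the library mean per 10 kb with wild-type SLFN11 and 72401 times with vector. If the pileups of the wild-type SLFN11 list are scaled down by the whole-library ratio, 7664 of its intervals are expected to pass the lowest −log10 p of the vector list. Scaled by the 10 kb ratio, 6751 are expected. Both numbers lie above the 5246 intervals of the vector library, by 1.46 and 1.29 times, whereas the lists as deposited differ by 2.22 times. The calculation scales each pileup at its called summit and does not repeat the peak calling. Whether the rest comes from this calculation, from the cells or from the preparation cannot be told apart with 1 library each.

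Lists of equal length were compared next, by taking the 5246 intervals with the highest −log10 p from each. Of these, 2093 wild-type SLFN11 intervals, or 39.9%, had no vector counterpart, and 60.1% (58.8 to 61.4) had one. Seen from the vector side 2058 had none and 60.8% (59.4 to 62.1) had one, a near equality that the equal lengths fix. The vector list was kept whole and the wild-type SLFN11 list was cut. Thus the 2093 had no overlap in the whole vector list. Of the 2058, only 808 had none in the whole wild-type SLFN11 list. Ranking each list by strength showed where the overlap lay.

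**Figure D1:**
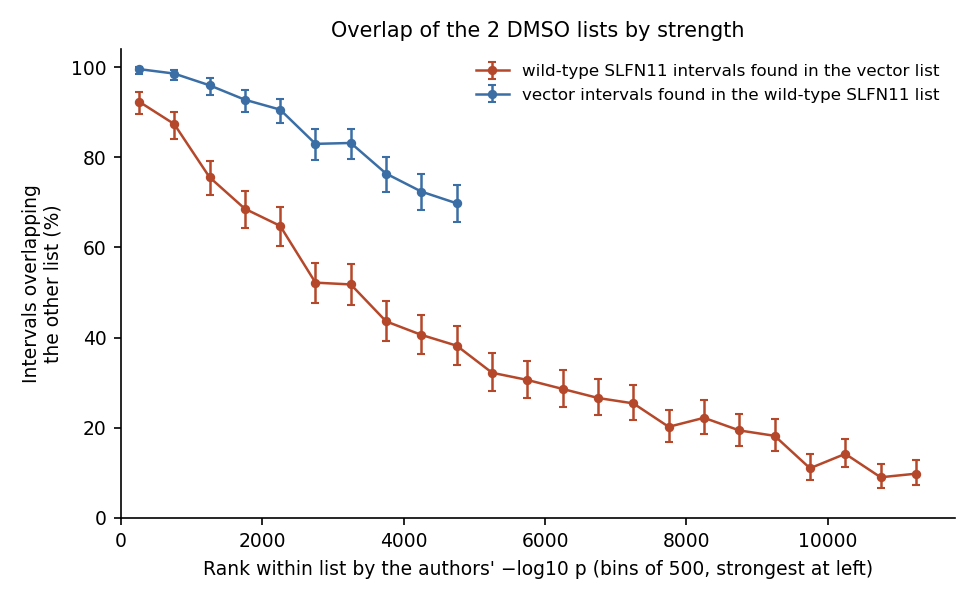
Share of intervals overlapping the other DMSO list (vertical axis, percent) by rank within the own list (horizontal axis, bins of 500 ordered by the authors' −log10 p), with exact 95% binomial intervals as bars. Of the 500 strongest wild-type SLFN11 intervals 462 were in the vector list, and of the 500 strongest vector intervals 498 were in the wild-type SLFN11 list; at ranks 11001 to 11500 of the wild-type SLFN11 list it was 49, and at ranks 4501 to 5000 of the vector list 349.

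The strong peaks were common to the 2 libraries, and the unshared ones were mostly weak. Unshared wild-type SLFN11 intervals had a median summit pileup of 9 fragments, a median fold over local background of 5.72 and a median width of 225 bp. Shared ones in the same library had 15 fragments, a fold of 7.20 and a width of 405 bp. In the vector library the unshared intervals had a median pileup of 6, a fold of 4.92 and a width of 188 bp, and the shared ones 9, 6.24 and 259 bp. So in both lists the unshared part was weaker and narrower than the shared part. By pileup, 5.20% of wild-type SLFN11 intervals with up to 5 fragments were in the vector list, 35.9% of those with 10 to 14, and 88.2% (84.9 to 91.1) of those with 30 or more. Of vector intervals, 52.9% of those with up to 5 fragments were in the wild-type SLFN11 list, 96.2% of those with 10 to 14, and all 113 of those with 30 or more.

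Only a small set of unshared peaks was strong. In the wild-type SLFN11 list 235 unshared intervals reached a pileup of 20 fragments, of 1526 such intervals in the list. In the vector list 2 did, of 249. The same cut is stricter in the shallower library: divided by the depth ratio of 1.72 it leaves 21 unshared vector intervals of 1212, and divided by 1.99 it leaves 29 of 1514. Of the 235, 144 (61.3%, 54.7 to 67.5) were found again in the wild-type SLFN11 library with CPT and 134 (57.0%, 50.4 to 63.4) in the vector library with CPT. The intervals of these 2 shares overlap.

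At shared peaks the wild-type SLFN11 library had more fragments before depth was taken into account. Per depth it had slightly fewer by the median over all pairs, though not in every class of vector pileup. Median summit pileup over 4361 pairs was 15 fragments in the wild-type SLFN11 library and 9 in the vector library. Per whole-library depth the median log2 ratio of wild-type SLFN11 over vector was −0.05, with the middle 50% of pairs between −0.37 and 0.30. Per the depth of the 10 kb windows it was −0.26. Few pairs lay beyond 2-fold: 73 were higher in the wild-type SLFN11 library (1.67%) and 106 lower (2.43%) by whole-library depth, and 24 higher (0.55%) and 183 lower (4.2%) by window depth. The split between higher and lower thus depended on which depth was used. By vector pileup the median log2 ratio per whole-library depth was 0.09 at 5 to 7 fragments and 0.25 at 30 or more. In the classes from 8 to 29 fragments it lay between −0.17 and −0.08. These classes were set on vector pileup, which is one side of the ratio, and that choice itself bears on their medians. A pair had to be called in both libraries, which leaves out places with signal in one alone. Across the pairs the pileups of the 2 libraries had a Spearman rho of 0.67 and the 10 kb counts one of 0.87, over places that share sequence and background and are not independent.

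**Figure D2:**
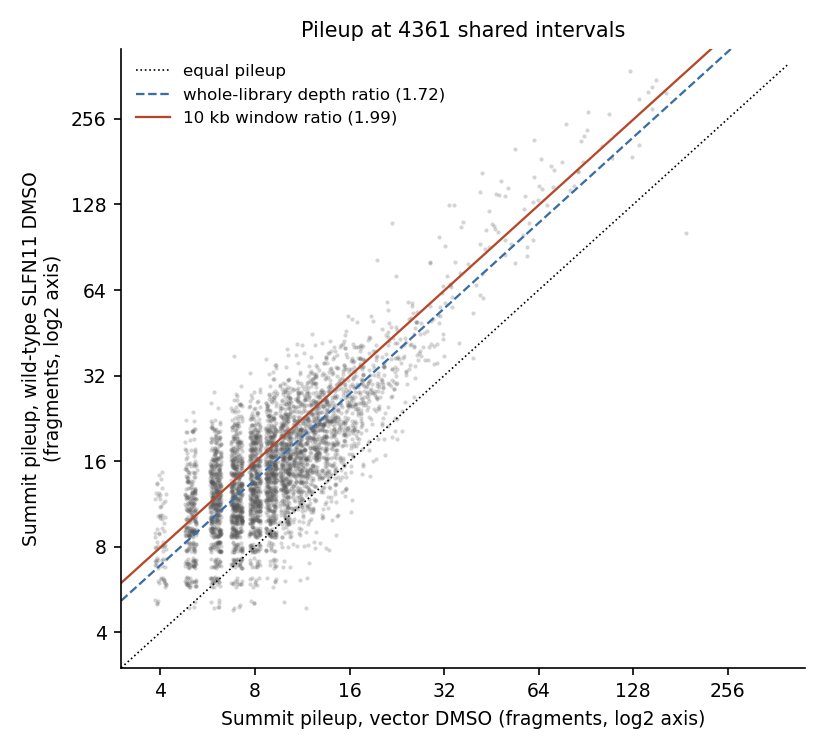
Summit pileup in fragments at 4361 shared intervals, wild-type SLFN11 DMSO (vertical axis) against vector DMSO (horizontal axis), both on log2 axes, with points moved slightly at random so that equal whole numbers do not hide each other. Lines mark equal pileup, the whole-library depth ratio of 1.72 and the 10 kb window ratio of 1.99. The median log2 ratio of the 2 pileups before any depth correction was 0.74.

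The pairs with the highest ratios among strong, wide peaks were single places on different chromosomes. A pair entered when its pileup reached 20 fragments in at least 1 library and both intervals were wider than 150 bp, which 1238 pairs did. By this cut on raw fragments, pairs high in the deeper wild-type SLFN11 library entered more easily. The median log2 ratio of the 1238 per whole-library depth was 0.22, against −0.05 over all pairs. Beyond 2-fold, 55 were higher with wild-type SLFN11 and 3 lower. On chromosome 5 from 179159457 to 179160198 the pileup was 37 fragments in the wild-type SLFN11 library and 7 in the vector library (log2 ratio per whole-library depth 1.62). It was 23 in the wild-type SLFN11 library with CPT and 7 in vector with CPT, and the E669Q line had 13 with DMSO and 22 after CPT. At this place both wild-type SLFN11 libraries stood above both vector libraries, and the listed DMSO summits lay 68 bp apart. On chromosome 14 from 73925182 to 73925557 the pileup was 24 with wild-type SLFN11 and 5 with vector (1.48), and after CPT 16 with wild-type SLFN11 and 10 with vector. On chromosome 1 from 145277281 to 145277494 it was 111 and 22 (1.55), and after CPT 49 with wild-type SLFN11 and 39 with vector. On these 2 the gap was smaller after CPT. On chromosome X from 133507127 to 133507435 it was 23 with wild-type SLFN11 and 5 with vector (1.42), but 7 with wild-type SLFN11 and 11 with vector after CPT, so the order turned round. The last, on chromosome 18 from 2854110 to 2854545, had 22 with wild-type SLFN11 and 5 with vector (1.35), and was called in 1 further library, vector with CPT, at 9.

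At the other end of the range the pileup per depth was lower in the wild-type SLFN11 library. On chromosome 5 from 93905088 to 93905242 it was 103 fragments with wild-type SLFN11 and 193 with vector (log2 ratio −1.69). The listed summits there lay 101 bp apart, so the 2 values do not describe the same base. E669Q with CPT had 111 at this place and the other 3 libraries 194 to 236. On chromosome 7 from 112758550 to 112758983 the pileup was 20 with wild-type SLFN11 and 24 with vector (−1.05), at the same summit, and after CPT 14 with wild-type SLFN11 and 10 with vector. On chromosome 5 from 114880132 to 114880677 it was 19 with wild-type SLFN11 and 22 with vector , and after CPT 13 with wild-type SLFN11 and 26 with vector. This place was lower with wild-type SLFN11 at both treatments, though its DMSO summits lay 71 bp apart. The remaining pairs lay on chromosome 2 from 179134598 to 179134849, with 17 and 20 fragments (−1.02), and on chromosome 3 from 19988211 to 19989274, with 19 and 21 (−0.93), wild-type SLFN11 before vector in each.

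Of the 10 strongest unshared wild-type SLFN11 intervals, taken by −log10 p among those wider than 150 bp, 5 were called in the vector library with CPT and 5 in no vector library. On chromosome 6 from 133593975 to 133594143 the summit pileup was 49 fragments, with 20 in wild-type SLFN11 with CPT, 24 in vector with CPT, 40 in E669Q with DMSO and 57 in E669Q with CPT. On chromosome 6 from 142468190 to 142468683 it was 40, with 11 in wild-type SLFN11 with CPT and 18 in vector with CPT. On chromosome 1 from 165567425 to 165567642 it was 25, with 13 in wild-type SLFN11 with CPT and 11 in vector with CPT. These 3 were missing from the vector DMSO list alone. The same was true of chromosome 10 from 42388288 to 42388513, with 127 fragments, and from 42546003 to 42546162, with 46, where the surrounding 10 kb held 4176 and 582 fragments against a library mean of 44.3.

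The other 5 were called in no vector library. On chromosome 11 from 77597505 to 77597665 the pileup was 52 fragments, with 35 in E669Q with DMSO and 48 in E669Q with CPT, and no interval in wild-type SLFN11 with CPT. On chromosome 2 from 133011918 to 133012098 it was 152, with 152 in E669Q with DMSO and 161 in E669Q with CPT, in a 10 kb window of 2720 fragments. Both were called in the 3 deepest libraries and in no other. On chromosome 1 from 569828 to 570013 the fold was 2.60 at a −log10 p of 899, and this interval was likewise in the 2 E669Q libraries. On chromosome 9 from 66823472 to 66823664 the pileup was 28, and no other library had an interval there. On chromosome 21 from 9699394 to 9699938 it was 99, with 36 in wild-type SLFN11 with CPT, 47 in E669Q with DMSO and 112 in E669Q with CPT, in a window of 2012 fragments. The last is the one of the 10 that was in both wild-type SLFN11 libraries and in neither vector library.

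Unshared vector intervals came from the shallower library and had fewer fragments, with the ratio of median pileups, wild-type SLFN11 over vector, at 1.5 and that of the depths at 1.72. Among the 10 with the highest −log10 p the pileups were 9 to 15 fragments. On chromosome 1 from 204485404 to 204485811 the vector DMSO library had 13, and the wild-type SLFN11 and vector libraries with CPT had 8 each. On chromosome 14 from 71786969 to 71787210 it had 11, with 6 in wild-type SLFN11 with CPT and 12 in vector with CPT. On chromosome 7 from 38380883 to 38381135 it had 10, with 7 in both CPT libraries. These 3, and chromosome 7 from 72349758 to 72349941 with 9 in the vector and 6 in wild-type SLFN11 with CPT, were thus called in a wild-type SLFN11 library once CPT had been given. Another 3 were in the vector DMSO library and no other, on chromosome 10 from 38881609 to 38881992 with 13 fragments, chromosome 6 from 1789366 to 1789572 with 11, and chromosome 8 from 82192468 to 82192748 with 10. The last 3 were in both vector libraries and in neither wild-type SLFN11 library. Of these, chromosome 1 from 186257585 to 186257838 had 10 fragments with DMSO and 10 with CPT, chromosome 4 from 15003679 to 15004109 had 15 and 9, and chromosome 3 from 17987980 to 17988370 had 9 and 15.

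The unshared intervals were looked up in the 4 libraries that had no part in choosing them. The wild-type SLFN11 and vector libraries with CPT had nearly the same whole-library depth, 28.1 and 28.0 fragments per 10 kb, with a window ratio of 1.09. Of the 7220 intervals that were in the wild-type SLFN11 DMSO list only, 1869 (25.9%, 24.9 to 26.9) were found in wild-type SLFN11 with CPT and 1739 (24.1%, 23.1 to 25.1) in vector with CPT. Those found in just one of them numbered 1060 for wild-type SLFN11 with CPT and 930 for vector with CPT. For comparison, the 4431 shared intervals of the same list were found in wild-type SLFN11 with CPT in 64.2% (62.8 to 65.6) and in vector with CPT in 70.0% (68.6 to 71.3). So the shared intervals were more frequent in the vector library with CPT, and the unshared ones slightly more frequent in the wild-type SLFN11 one. The E669Q libraries held 39.6% of them with DMSO and 57.3% with CPT, at whole-library depths of 1.33 and 2.22 times the vector DMSO library, and 2226 (30.8%) were in none of the 4.

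The mirrored set looked alike at a lower level. Of the 808 intervals in the vector DMSO list alone, 116 (14.4%) were found in wild-type SLFN11 with CPT and 130 (16.1%) in vector with CPT. The 95% intervals overlap, though the same 808 were looked up in both. Those found in just one numbered 79 for wild-type SLFN11 with CPT and 93 for vector with CPT. At matched length for all lists, 43.2% (41.1 to 45.3) of the 2093 unshared wild-type SLFN11 intervals were found in wild-type SLFN11 with CPT and 40.4% (38.3 to 42.5) in vector with CPT. Of the 2058 vector intervals with no overlap in the cut wild-type SLFN11 list, 28.1% (26.2 to 30.1) were found in wild-type SLFN11 with CPT. In vector with CPT it was 31.4% (29.4 to 33.5). Most of these 2058 overlapped a lower-ranked wild-type SLFN11 interval, whereas the 2093 overlapped no vector interval, so the 2 sets are not alike. Of the 2 CPT libraries, each set was found slightly more often in that of its own line, and the 95% intervals overlap. The same intervals were looked up in both libraries, so that overlap does not measure the difference. E669Q with DMSO held 43.9% of the wild-type SLFN11 set and 29.1% of the vector set, and E669Q with CPT 44.1% and 29.6%. Outside chromosomes 16, 17 and 19 wild-type SLFN11 with CPT held 40.7% of the wild-type SLFN11 set and vector with CPT 40.9%. For the vector set these shares were 26.7% and 32.2%.

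**Figure D3:**
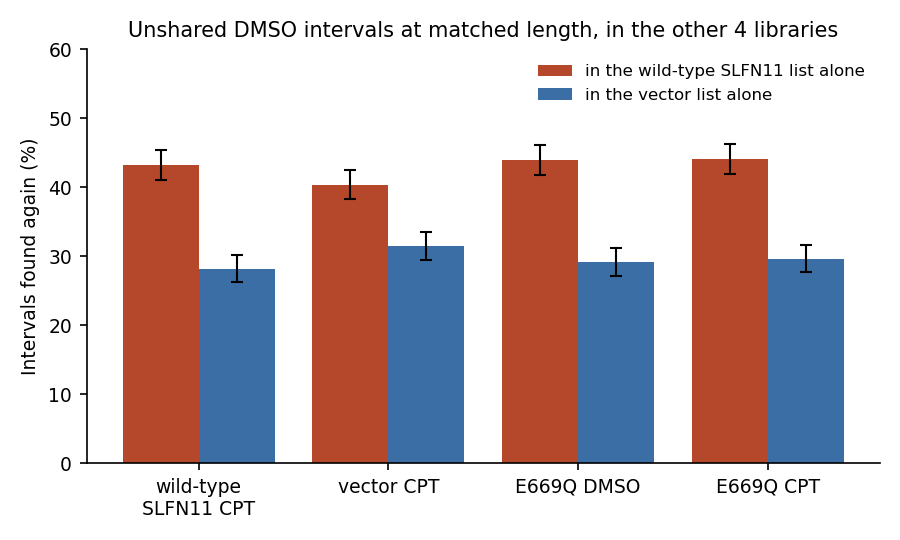
Share of unshared DMSO intervals found again (vertical axis, percent) in the other 4 libraries, for the 2093 intervals that only the wild-type SLFN11 list held and the 2058 in the vector list alone, with every list at matched length. Bars carry exact 95% binomial intervals; the wild-type SLFN11 bars stand between 40.4% and 44.1% and the vector bars between 28.1% and 31.4%.

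A set of 1060 intervals was in both wild-type SLFN11 libraries and in neither vector library, which is 14.7% of the 7220 unshared ones. Another 93 were in both vector libraries and in neither wild-type SLFN11 library, which is 11.5% of the 808 unshared ones. The 1060 had a median pileup of 10 fragments and a median fold of 6.02 in the DMSO library, and 38 of them reached 20 fragments. The 93 had a median pileup of 7 and a fold of 5.47, and 0 reached 20, or 4 with the cut divided by 1.72 and 7 with it divided by 1.99. Both sets were thus made mostly of weak peaks, and they were drawn from DMSO lists of unequal length. Of the 1060, 608 were also in E669Q with DMSO, 824 in E669Q with CPT, 535 in both and 163 in neither. Of the 93 these numbers were 27, 64, 25 and 27. At least 1 E669Q library held 84.6% of the 1060. It was 81.6% of the 930 unshared wild-type SLFN11 intervals found in vector with CPT and not in wild-type SLFN11 with CPT. For the 93 it was 71.0%, and 73.4% of the 79 unshared vector intervals found in wild-type SLFN11 with CPT alone of the 2.

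The strongest peaks of the first set are places a reader could look up. After the interval on chromosome 21 given above came chromosome 10 from 103124588 to 103124723, 136 bp wide, where the wild-type SLFN11 libraries had 24 fragments with DMSO and 20 with CPT, and E669Q with CPT had 11. Chromosome 2 from 89875279 to 89875387, 109 bp wide, had 42 and 32, and 98 in E669Q with CPT. Chromosome 6 from 164460989 to 164461355 had 23 and 13, and 11 in each E669Q library. Chromosome 17 from 65713733 to 65714050 had 21 and 8, with 7 in E669Q with DMSO and 14 in E669Q with CPT. Each of these was also called in at least 1 E669Q library. In the second set the strongest beyond the 3 named above lay on chromosome 3 from 33318816 to 33318946, with 10 fragments in vector with DMSO and 9 in vector with CPT, and on chromosome 13 from 108535979 to 108536328, with 13 and 12.

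The wild-type SLFN11 list held a larger share of its intervals on chromosomes 16, 17 and 19 than the vector list. In the lists as deposited, the wild-type SLFN11 list held 3.52% of its intervals on chromosome 16 and the vector list 2.10%, a difference of 1.42 percentage points (Newcombe 95% interval 0.89 to 1.92). On chromosome 17 the shares were 3.24% and 1.81% (1.43 points, 0.93 to 1.90). At matched length chromosome 16 differed by 1.01 points (0.40 to 1.63), chromosome 17 by 0.72 (0.17 to 1.29) and chromosome 19, with 189 intervals against 118, by 1.35 (0.71 to 2.01). Of 23 chromosomes these 3 were the ones whose interval excluded 0 both as deposited and at matched length. As deposited the interval also excluded 0 for chromosomes 20 and X, higher with wild-type SLFN11, and for 2, 4, 5, 6 and 7, lower with wild-type SLFN11. None of those did at matched length, and no adjustment was made for the 23 chromosomes. The CPT libraries of the 2 lines differed the same way. Chromosome 16 held 3.79% with wild-type SLFN11 and 2.29% with vector, and chromosome 17 held 4.03% and 2.00%. Chromosome 19 held 6.01% and 2.89% (3.11 points, 2.36 to 3.88). Chromosome 19 was already known from earlier results of the series, so for it the CPT libraries are not an independent check. Chromosome 2 (−1.87 points, −2.94 to −0.80) and chromosome 4 (−1.23, −2.03 to −0.43) were lower with wild-type SLFN11 after CPT, as they were with DMSO in the lists as deposited. With CPT chromosome 8 was also lower (−1.02, −1.82 to −0.21) and chromosome 22 higher (0.48, 0.07 to 0.89), neither of which differed with DMSO.

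**Figure D4:**
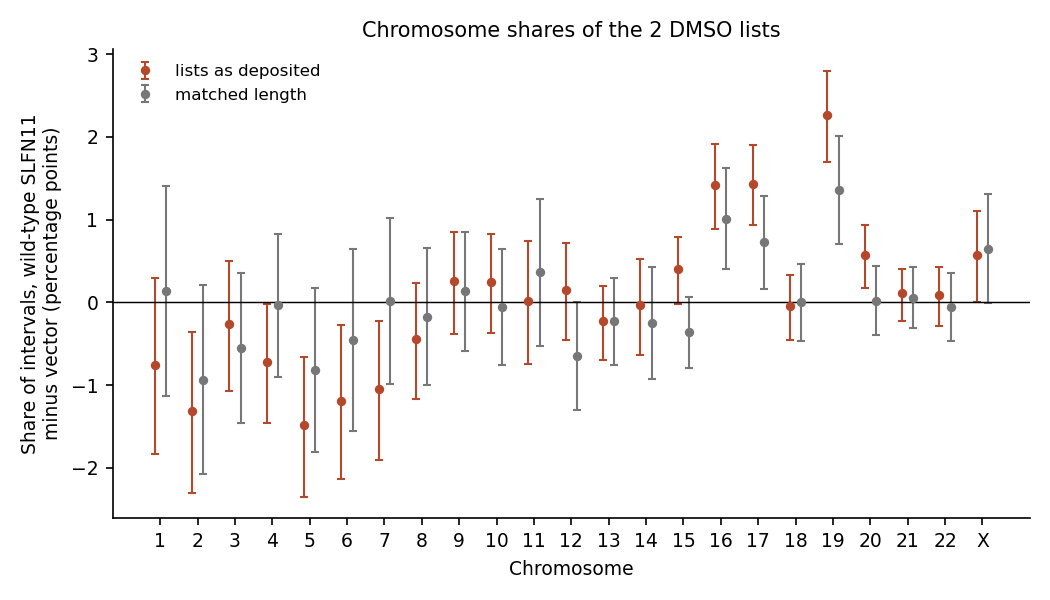
Difference in the share of intervals per chromosome, wild-type SLFN11 DMSO minus vector DMSO (vertical axis, percentage points), for the lists as deposited and for the 5246 strongest intervals of each, with Newcombe 95% intervals as bars. Chromosomes 16, 17 and 19 lie above 0 in both, at 1.42, 1.43 and 2.27 points as deposited and at 1.01, 0.72 and 1.35 points at matched length.

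The 3 chromosomes are rich in genes. By protein-coding genes of RefSeq (GRCh38.p14) per Mb up to the last peak, chromosome 19 had 24.5, chromosome 17 had 14.4 and chromosome 16 had 9.46, against 2.94 to 9.66 on the remaining 20. Across the 23 chromosomes the ratio of shares had a Spearman rho with gene density of 0.59 as deposited and 0.45 at matched length, and without the 3 chromosomes of 0.39 and 0.16, as a description over chromosomes that share libraries. At matched length the relation was thus weak among the remaining 20. Chromosome 11, at 9.66, had a difference in share with DMSO whose interval held 0 (0.02 points, −0.74 to 0.75), and so had chromosome 22, at 8.80 (0.09 points, −0.29 to 0.43).

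With more wild-type SLFN11 than vector intervals on these 3 chromosomes, a larger share of those of wild-type SLFN11 must be unshared, and the shares are given as a description. As deposited 81.0% of the wild-type SLFN11 intervals on chromosome 19, 80.2% on 17 and 78.3% on 16 were unshared, against 59.7% elsewhere and 62% over the whole list. In lists of equal length these shares were 68.8%, 64.7% and 64.4%, against 37.2% elsewhere and 39.9% over the whole list. The vector intervals in lists of equal length were also more often unshared there, at 59 of 118 on chromosome 19 (95% interval 40.7% to 59.3%), 50.5% (40.1 to 60.9) on 17 and 45.5% (35.9 to 55.2) on 16, against 38.6% (37.3 to 40.0) elsewhere. The 95% intervals of chromosomes 17 and 19 lie just above that of the other chromosomes, and that of chromosome 16 overlaps it. In these lists the wild-type SLFN11 list was cut and the vector list was whole. As deposited, 16.1% (10.0 to 24.0) of vector intervals on chromosome 19 were unshared. On 17 it was 22.1% (14.2 to 31.8), on 16 it was 17.3% (10.7 to 25.7) and elsewhere 15.2% (14.2 to 16.2), with overlapping intervals.

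On the same 3 chromosomes more unshared wild-type SLFN11 intervals were found again in wild-type SLFN11 with CPT than in vector with CPT, by about as much as the 2 CPT lists differ there in length. Of 426 unshared wild-type SLFN11 intervals on chromosome 19, 194 (45.5%, 40.7 to 50.4) were found in wild-type SLFN11 with CPT and 95 (22.3%, 18.4 to 26.6) in vector with CPT. On chromosome 17 it was 105 of 303 (34.7%) and 57 (18.8%), and on chromosome 16 it was 111 of 321 (34.6%) and 68 (21.2%). The numbers found again stood at a ratio of 2.04 on chromosome 19, 1.84 on 17 and 1.63 on 16, wild-type SLFN11 with CPT over vector with CPT. All intervals of the 2 CPT lists on those chromosomes stood at 1.99 (334 and 168), 1.93 (224 and 116) and 1.59 (211 and 133). The tilt was thus one of the whole CPT lists on these chromosomes and is not shown to be particular to the unshared intervals. Over the remaining chromosomes 23.6% (22.6 to 24.7) were found in wild-type SLFN11 with CPT and 24.6% (23.5 to 25.7) in vector with CPT. So outside the 3 chromosomes the share in the vector library was as high as in the wild-type SLFN11 library. On chromosome 4 it was higher in the vector library, with 20.9% in wild-type SLFN11 with CPT and 29.5% in vector with CPT. Their 95% intervals overlap, though the same intervals were looked up in both libraries.

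**Figure D5:**
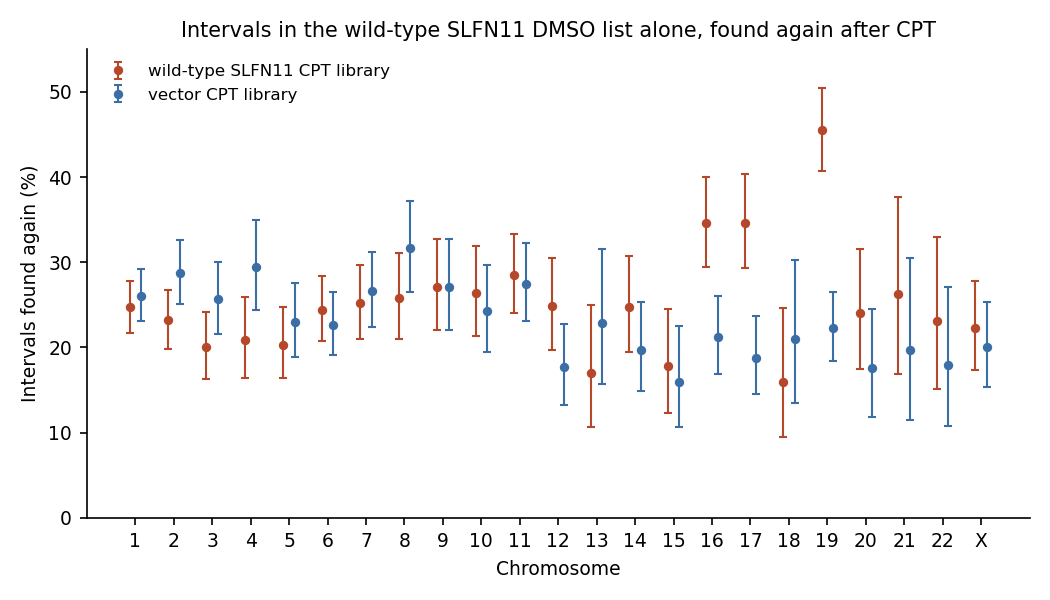
Share of the intervals in the wild-type SLFN11 DMSO list alone that were found again after CPT (vertical axis, percent), by chromosome, in the wild-type SLFN11 CPT library and in the vector CPT library, with exact 95% binomial intervals. On chromosomes 16, 17 and 19 the wild-type SLFN11 points, at 34.6%, 34.7% and 45.5%, stand clear of the vector points at 21.2%, 18.8% and 22.3%.

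The same tilt appeared in intervals that had been called with vector. On chromosome 19, 59 vector intervals had no overlap among the 5246 strongest wild-type SLFN11 intervals. At matched length 28 of them (47.5%, 34.3 to 60.9) were in wild-type SLFN11 with CPT and 11 (18.6%, 9.69 to 30.9) in vector with CPT. Only 19 had no overlap in the whole wild-type SLFN11 list, so most of the 59 were called there at a lower rank. Of these 19, as deposited, 6 (31.6%, 12.6 to 56.6) were in wild-type SLFN11 with CPT and 0 (0 to 17.6) in vector with CPT. Both sets were thus found more often with wild-type SLFN11. Elsewhere the vector intervals unshared at matched length were found in wild-type SLFN11 with CPT in 26.7% (24.7 to 28.8). In vector with CPT it was 32.2% (30.1 to 34.3). Of the unshared wild-type SLFN11 intervals on chromosome 19 at matched length, 57.7% (48.7 to 66.3) were in E669Q with DMSO, against 30.2% (20.8 to 41.1) of those on chromosome 17 and 43.5% (41.2 to 45.9) of those elsewhere.

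Among the 1060 intervals in both wild-type SLFN11 libraries and in neither vector library, 126 (11.9%) lay on chromosome 19. Another 68 (6.42%) lay on chromosome 16 and 67 (6.32%) on chromosome 17. In the whole wild-type SLFN11 DMSO list the shares were 4.51% on chromosome 19, 3.52% on 16 and 3.24% on 17. The set was chosen by the 2 CPT lists, which held 334 (wild-type SLFN11) and 168 (vector) intervals on chromosome 19. A larger share there is thus partly built into the set. Of the 93 in both vector libraries alone 0 lay on chromosome 19, with an exact 95% upper limit of 3.89%, which the 2.25% of the whole vector list lies under. In segments of 10 Mb, the widest gaps at matched length lay on chromosome 19 from 0 to 10 Mb, with 55 wild-type SLFN11 and 27 vector intervals, chromosome 16 from 80 to 90 Mb, with 38 and 19, and chromosome 16 from 0 to 10 Mb, with 37 and 19. Chromosome 5 from 170 to 180 Mb had 45 and 28, and chromosome 1 from 0 to 10 Mb had 49 and 35. The widest gap the other way lay on chromosome 5 from 140 to 150 Mb, with 26 wild-type SLFN11 and 41 vector intervals. The gaps thus lay in several segments of different chromosomes.

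The local background also differed by chromosome, on these 3 and on others. Relative to all shared intervals, the 10 kb count of wild-type SLFN11 over vector was higher on the log2 scale by 0.24 on chromosome 16 (95% interval of the median 0.09 to 0.42, 88 pairs), 0.18 on 17 (0.04 to 0.32, 73 pairs) and 0.25 on 19 (0.14 to 0.35, 98 pairs). It was as high on chromosome 22, at 0.23 (0.16 to 0.41, 51 pairs), and on chromosome 20, at 0.18 (0.06 to 0.27, 47 pairs), where the difference in share at matched length had an interval that held 0. As deposited the share on chromosome 20 was higher with wild-type SLFN11 (0.57 points, 0.18 to 0.93). With CPT that on chromosome 22 was higher (0.48 points, 0.07 to 0.89). The summit pileup at shared intervals was higher by 0.18 on chromosome 19 (0.07 to 0.36) and by 0.34 on chromosome 22 (0.26 to 0.49). Across the 74 segments of 10 Mb with at least 20 pairs, the background ratio ran from −0.27 to 0.33 around the median of all pairs. The lowest were chromosome 2 from 150 to 160 Mb and chromosome 1 from 170 to 180 Mb, both at −0.27, and the highest chromosome 4 from 0 to 10 Mb and chromosome 9 from 130 to 140 Mb, both at 0.33. The part of this background in the chromosome shares was not tested. Across the 23 chromosomes the background ratio had a Spearman rho with gene density of 0.75, and of 0.65 without chromosomes 16, 17 and 19, again as a description.

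The intervals with the highest −log10 p in the vector list were the same places in both libraries and hardly differed in fold. On chromosome 17 from 22020540 to 22020910 the fold was 47.9 with wild-type SLFN11 and 49.6 with vector, at −log10 p of 5595 and 3784. On chromosome 13 from 110076475 to 110076687 it was 35.1 with wild-type SLFN11 and 37.3 with vector. On chromosome 2 from 149639294 to 149639421 it was 42.1 and 44.2, on chromosome 1 from 564505 to 565371 it was 4.05 and 4.00, and on chromosome 5 from 79947257 to 79947488 it was 17.9 and 19.3, wild-type SLFN11 before vector. All 5 were in all 6 libraries. Their −log10 p grows with depth, and their pileups were too high to be recovered. No hg19 sequence or annotation was used for these or the other named places. Whether they hold promoters, enhancers, repeats or copies of mitochondrial DNA was therefore not checked, and a high value there need not mean open chromatin.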

How the data were processed

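The deposited files are 1 peak list per library from ATAC-seq of K562 lines, listed per library and not pooled. Per the submitters' processing notes the build was hg19 and the tools included MACS2 2.1.2, Picard 2.9.2, SAMtools 1.8, Bowtie2 2.2.6 and Trimmomatic 0.39, with no role or setting. Read shifting, duplicate removal and read number are not given in the sources used here. Peaks carry the authors' fold, a ratio of summit to local background. They also carry the authors' −log10 of the p-value and of the q-value. The deposited score equals 10 times that −log10 q with its decimals cut off. The lowest deposited −log10 q is about 2. The deposited summit position was used for the distance between summits.

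Distinct intervals were compared, and an overlap of 1 bp or more counted as shared. Lists of equal length hold the 5246 strongest intervals by −log10 p, and 5562 for lookups in other libraries. A whole-number summit pileup in fragments and a local background were solved from fold, with a pseudocount of 1, and −log10 p. A solution matching −log10 p to 0.001 existed for 98.6% to 99.2% of entries. The lowest background gives the mean fragments per 10 kb, and the background at a summit the fragments in the surrounding 10 kb. Expected counts at lower depth were calculated from these, and the step was tested on simulated single places without peak calling. The 95% intervals are exact Clopper-Pearson ones for shares, Newcombe ones for their differences and order-statistic ones for medians. With 1 library per group no test was made. The regions described are the 10 strongest unshared intervals per list over 150 bp wide, the 5 strongest in both libraries of one line and none of the other, the 5 highest and 5 lowest pileup ratios, and the 5 shared intervals with the highest vector −log10 p. The comparison, lists and rules were chosen with earlier results of these data known. Chromosomes 16, 17 and 19, the 10 kb depth and the groups of unshared intervals by chromosome were picked from the values. Gene and promoter lists were not used, since no hg19 annotation was at hand. Genes per chromosome came from RefSeq on GRCh38.p14, without coordinates, divided by the largest peak end. Tools were scipy 1.17.1, statsmodels 0.14.6, pandas 2.3.3, numpy 2.4.6 and matplotlib 3.10.9 under Python 3.11.15.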

Additional observations from a re-analysis of the deposited data

Results flagged for a closer look

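The number of intervals differed between the lines in opposite directions with and without drug. The wild-type SLFN11 list was 2.22 times as long as the vector list with DMSO, and 0.958 times as long with CPT (5562 intervals with wild-type SLFN11 and 5806 with vector). Mean fragments per 10 kb were 1.72 times higher with wild-type SLFN11 with DMSO and 1.00 times with CPT. The difference between the 2 treatments was not tested, with 1 library each.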

How the results depend on the processing

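With 50% reciprocal overlap, the share of wild-type SLFN11 intervals found in the vector list (38.0%) was 23.9%, and that of vector intervals in the wild-type SLFN11 list (84.6%) was 53.1%. With −log10 q of 5 or more these were 30.7% and 87.1%, and when intervals within 500 bp counted they were 40.1% and 86.8%. With fold of 5 or more the first was 37.0%, and above 150 bp the second was 83.4%. The matched share (60.1%) was 57.9% when ranked by fold, 55.9% for the strongest 2500, 53% for the strongest 1000 and 39.5% with reciprocal overlap. The chromosome 19 difference (2.27 points) was 1.35 at matched length, 1.41 matched by fold and 2.96 with −log10 q of 5 or more.

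The median log2 pileup ratio per depth (−0.05) turned to 0.0043 for pairs with a vector pileup of 20 or more. It turned to 0.22 for pairs with a wild-type SLFN11 pileup of 20 or more. Each is a filter on one side of the ratio. The median ratio was −0.13 with −log10 q of 5 or more, −0.11 with 1 summit, −0.13 with depth times fragment length and −0.26 by window depth, an alternative added after seeing the data. The share of unshared wild-type SLFN11 intervals found in wild-type SLFN11 with CPT (25.9%) was 17.9% with reciprocal overlap, 44.1% with −log10 q of 5 or more, 33.2% with fold of 5 or more, 30.9% above 150 bp and 43.2% at matched length. For unshared vector intervals in vector with CPT (16.1%) these were 26.0%, 43.5%, 29.5%, 20.4% and 31.4%. Each setting also redraws which intervals count as unshared, so these are not shares of the same intervals. At matched length the unshared vector set held 2058 intervals instead of 808. The 2 unshared vector intervals with a pileup of 20 or more became 21 and 29 with the cut divided by the whole-library and window depth ratios, also added after seeing the data. The 11651 wild-type SLFN11 intervals became 7664 at vector depth and 6751 by window depth.

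No paired analysis was possible because each group has 1 library. Line, library and preparation therefore cannot be told apart, and leaving out a replicate could not be run. At 25.7 fragments per 10 kb in the vector library, places with few fragments can be missed, so absence from its list is not absence of signal.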

Other observations

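Mitochondrial DNA held 60342 times the library mean of fragments per 10 kb in wild-type SLFN11 with DMSO, and 72401 times in vector with DMSO. With CPT it was 64750 times with wild-type SLFN11 and 75433 times with vector. The E669Q libraries had 66630 times with DMSO and 48077 times with CPT. Among shared pairs the difference in pileup also varied with vector pileup: where the vector pileup was 30 fragments or more, 100 pairs had a median log2 ratio per whole-library depth of 0.25, with medians of 109 fragments with wild-type SLFN11 and 48 with vector. Where it was 15 to 19 fragments the median log2 ratio was −0.17 over 337 pairs. The classes were set on one side of the ratio. Some of the 100 lay on chromosomes 10 and 11 in 10 kb windows far above the library mean. Chromosome 15 had the lowest share of vector intervals found in the wild-type SLFN11 list, at 64.9% (52.9 to 75.6) of 74.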
